A study of Bos taurus with 12 samples.

Results

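The comparison described here sets the endometrium of dairy cows with more progesterone on day 4 of the estrous cycle against that of cows with less. The series holds 12 RNA-seq libraries from endometrial biopsies of Bos taurus, 3 in each of 4 progesterone classes. The 6 libraries of the high and very high classes were pooled as the upper pool, and the 6 of the very low and low classes as the lower pool, so that all 12 of 12 libraries were used and every pool was defined by the labels alone. By their labels, the very low class had less than 0.25 ng/ml of progesterone, the high class more than 2.5 ng/ml and the very high class more than 20 ng/ml. The low class is labelled as below 1.4 mg/dl, a different unit, and only its name places it beside the very low class. The cows were grazing, and no treatment, breed or age is given. The sample titles shorten the very low class to ANE and the very high class to SO, abbreviations the sources used here do not explain, so the classes may differ in more than progesterone. Nothing in the labels says that the replicates of a class were separate cows, and p-values therefore measure the spread between these samples.

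Progesterone from the corpus luteum acts on the endometrium through its nuclear receptor, which is found in the epithelium and in the stroma. Early in diestrus it turns the tissue from the proliferative state set by estrogen to a secretory state, and the glands begin to release the nutrients, ions and signals that a conceptus depends on. It is also known to restrain parts of uterine immune function. A biopsy of the endometrium samples glands, surface epithelium, stroma, vessels and resident leukocytes together, and a deep biopsy can reach the smooth muscle of the myometrium.

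The libraries held 3772564 to 8379489 counted reads, the smallest being very low replicate 2. Levels are given as CPM, counts scaled to library size, and a list's score in a library averages the log2 CPM of those members that were tested. The labelled tissue was seen in its markers, with a stromal score of 5.81 to 8.12 in the 12 libraries and an epithelial score of 5.51 to 7.44 in 11 of them. Very low replicate 1 had an epithelial score of 3.30. The score of 23 smooth muscle markers was 8.61 to 9.81 in the 6 upper libraries and 5.0 to 6.15 in 5 of the lower libraries. Very low replicate 1 stood at 10.84, above all the others. Smooth muscle RNA thus moved with the pools in all but that library, and the values of very low replicate 1 are given beside several of the main results. In bulk tissue, fewer cells of a type and less RNA per cell cannot be told apart.

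Of 10959 tested genes, 721 (6.58%) differed, and 210 (1.92%) were higher and 511 (4.66%) were lower in the upper pool at an adjusted p of 0.05 by the edgeR quasi-likelihood test. The median log2 fold change, upper over lower, was 0.98 over the genes called higher and -1.67 over those called lower, beside -0.07 over all tested genes. Of the genes that changed more than 4-fold, 154 were called lower and 49 higher. The ranges of the pools did not overlap in 375 genes (3.42%). In 170 of them (1.55% of those tested) every upper library lay above every lower library, and in 205 (1.87%) every upper library lay below. A gene of this kind is called separated here, which describes ranges and is not a test. The test and the ranges overlapped in part: 114 of the genes called higher and 167 of those called lower were separated, whereas 344 genes called lower had at least 1 library inside the range of the other pool.

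The number of calls hung on single libraries. It rose to 566 higher and 1070 lower without very low replicate 1, and 353 were higher without low replicate 1. It fell to 74 higher and 128 lower without very low replicate 2, to 114 higher without very low replicate 3, to 244 lower without high replicate 1, and to 79 higher and 188 lower without high replicate 3. Without low replicate 3 there were 6 higher and 2 lower, without very high replicate 1 there were 18 and 7, and without very high replicate 2 there were 18 and 6. Without high replicate 2 and without very high replicate 3 there were 4 higher and 0 lower in each case. In these 12 fits between 2266 and 3432 genes had an unadjusted p under 0.05, beside 2768 with all libraries, and all 721 called genes kept their direction in each of the 12. Among the named genes, ACTC1, P2RX1, MYL4 and ADCY8 passed the threshold in each of the 12. The count of separated genes, given above, went to 434 higher and 464 lower without very low replicate 1, to 372 higher without low replicate 1, to 286 higher and 373 lower without low replicate 2, and to 329 higher without high replicate 1.

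**Figure D1:**
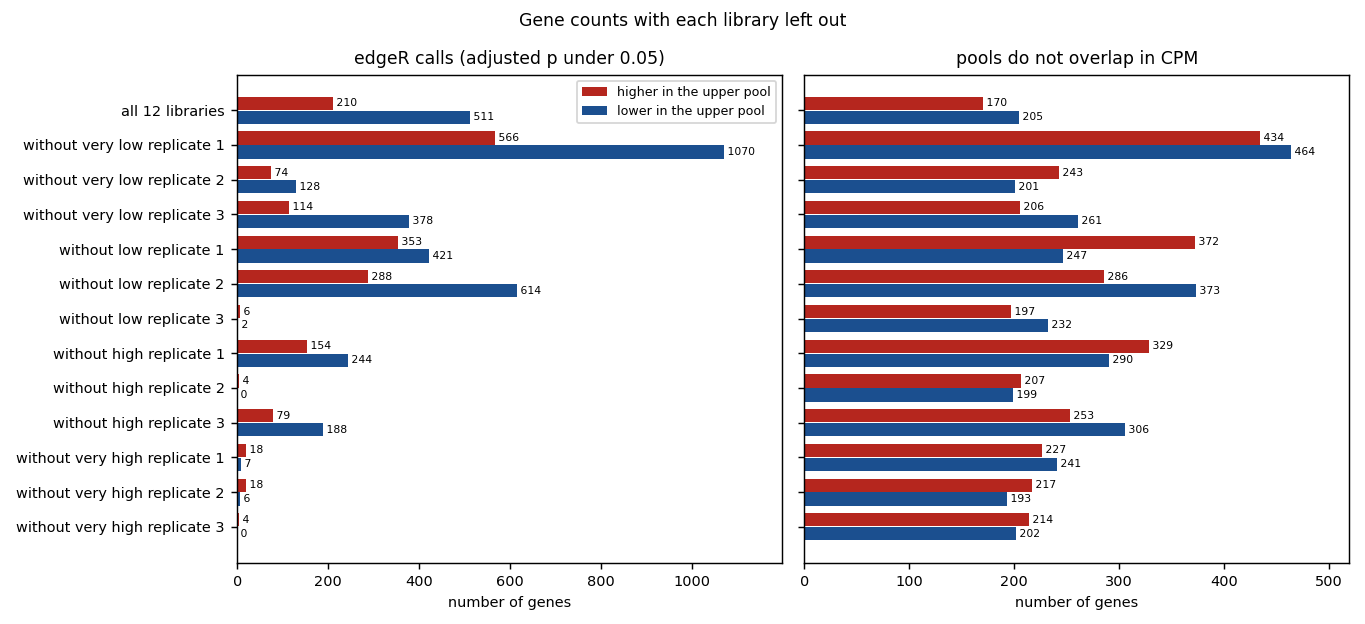
Number of genes higher (red) or lower (blue) in the upper pool, by edgeR call (left) and by ranges that do not overlap (right), with all 12 libraries and with each library left out. Calls went from 210 and 511 to between 4 and 566 higher and between 0 and 1070 lower, and separated genes increased most without very low replicate 1, to 434 and 464.

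Among genes called and separated whose mean log2 CPM was 1 or more, leaving out symbols that are locus numbers, the largest rise was in ACTC1, the cardiac actin of the thin filament. It had 25.9, 32.5 and 143 CPM (lowest, median and highest) in the upper pool against 0, 0.201 and 1.43 CPM in the lower pool. Every upper library was far above every lower one. Very low replicate 1, the library richest in smooth muscle, held no ACTC1 read, which allows up to 0.53 CPM at 3 counts. ACTC1 and the other rising genes taken under these limits were picked as separated, which by itself places that library below the upper pool. The log2 fold change was 6.56 with a standard error (SE) of 0.75 (edgeR adjusted p = 0.0063). The actin genes are near-identical in sequence, and counts of ACTC1 are uncertain where reads could be shared. Of the other contractile genes, MYL4, an embryonic and atrial myosin light chain, had 8.92, 15.3 and 49.7 CPM in the upper pool against 0.512, 0.878 and 1.59 CPM in the lower pool. Its log2 fold change was 4.53 (SE 0.52, edgeR adjusted p = 0.0063). The 1.59 CPM, the highest lower value, were those of very low replicate 1. MYL4 overlaps CDC27 in the gene table, which did not pass (log2 fold change -0.14, SE 0.12, edgeR adjusted p = 0.497). TNNI1, the troponin I of slow skeletal muscle, rose by 4.79 on the log2 scale (SE 0.81, edgeR adjusted p = 0.0235) at low levels, with 0.873 to 13.4 CPM against 0 to 0.52 CPM.

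P2RX1, an ATP-gated cation channel of smooth muscle and platelets, had 4.56, 8.74 and 14.3 CPM in the upper pool and 0, 0.263 and 0.707 CPM in the lower pool. The ranges lay far apart, the log2 fold change was 4.91 with an SE of 0.61 (edgeR adjusted p = 0.00914), and the highest lower value was that of very low replicate 1. ADCY8, a calcium-stimulated adenylyl cyclase, had 21.9, 34.6 and 74.5 CPM against 0.53, 2.65 and 6.33 CPM, a log2 fold change of 3.67 (SE 0.48, edgeR adjusted p = 0.0106). Its lowest value belonged to very low replicate 1. ADCY5, another adenylyl cyclase, rose by 2.76 on the log2 scale (SE 0.45, edgeR adjusted p = 0.0235), from 2.32 to 20.7 CPM up to 40.9 to 103 CPM. Here very low replicate 1 was the highest lower library, at 20.7 CPM. PCP4, a calmodulin-binding peptide, had 174, 277 and 409 CPM in the upper pool and 0.516, 30.4 and 51.9 CPM in the lower pool (log2 fold change 3.52, SE 0.70, edgeR adjusted p = 0.0257). KCNIP4, a calcium-binding partner of voltage-gated potassium channels, was higher by 3.88 on the log2 scale (SE 0.66, edgeR adjusted p = 0.0235). Of 21 tested genes of cyclic AMP signalling, ADCY8 and ADCY5 were called higher, while PKIB, an inhibitor of protein kinase A, and PDE4B, a cyclic AMP phosphodiesterase, were called lower. The list's median log2 fold change was -0.02.

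Both called members of the 14 secretory granule and neuropeptide genes rose. CHGA, chromogranin A of dense-core granules, had 18, 57.7 and 127 CPM in the upper pool and 1.03, 3.79 and 13.1 CPM in the lower pool, a log2 fold change of 3.71 (SE 0.61, edgeR adjusted p = 0.0235). Its class means were 2.41, 7.61, 39.9 and 94.3 CPM in order of progesterone. SCG2, secretogranin II, was scarce in every library but separated, with 0.939 to 4.34 CPM against 0 to 0.258 CPM (log2 fold change 3.93, SE 0.65, edgeR adjusted p = 0.0235). The median of the 14 genes was 0.24, so the rise was that of 2 members.

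DHTKD1, a mitochondrial enzyme of lysine and tryptophan breakdown, had 107, 128 and 141 CPM in the upper pool and 61.6, 66.6 and 80.1 CPM in the lower pool, a log2 fold change of 0.86 (SE 0.12, edgeR adjusted p = 0.0176). HACD3, a dehydratase that lengthens fatty acids, rose by 0.72 on the log2 scale (SE 0.11, edgeR adjusted p = 0.0234), from 70.6 to 85.8 CPM up to 109 to 151 CPM. ACACA, acetyl-CoA carboxylase, which makes the building block of fatty acid synthesis, rose by 1.98 on the log2 scale (SE 0.43, edgeR adjusted p = 0.029), and very high replicate 2 was its highest library at 314 CPM. ACSL5, which activates long-chain fatty acids, fell by 1.68 on the log2 scale (SE 0.39, edgeR adjusted p = 0.0342). These 2 were the calls among 40 tested genes of lipid uptake and metabolism (median 0.11), and none of 23 genes of sterol synthesis was called (2 higher and 2 lower at an unadjusted p under 0.05, and 1 higher by DESeq2).

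**Figure D2:**
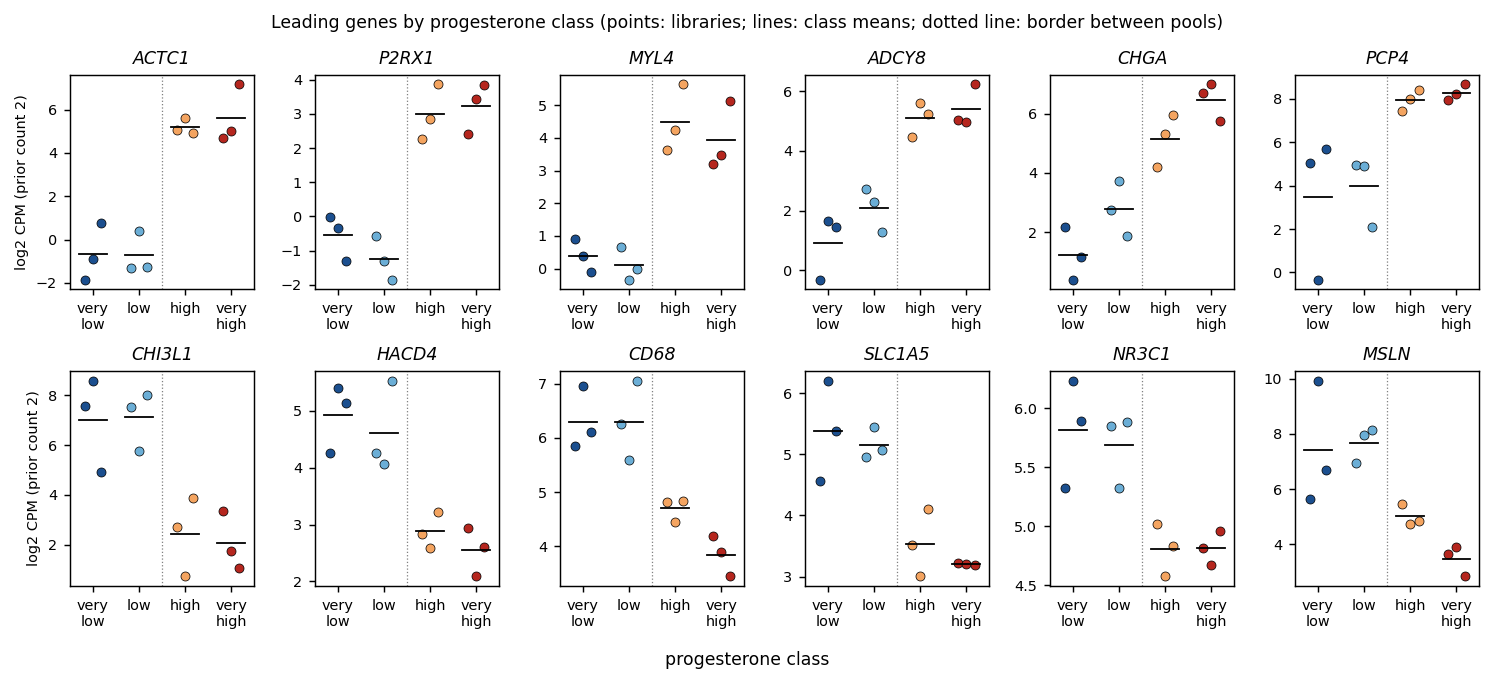
Level (log2 CPM with a prior count of 2) of 12 leading genes in each library by progesterone class, with class means as lines and the border between the pools dotted. The 6 genes of the upper row are higher and the 6 of the lower row are lower in every high and very high library than in every very low and low library, and the lowest ADCY8 value is that of very low replicate 1 and the lowest PCP4 value that of very low replicate 2.

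Under the same limits the largest fall was in CHI3L1, a chitinase-like glycoprotein secreted by macrophages and neutrophils. It had 1.40, 4.71 and 14.5 CPM in the upper pool and 30.0, 186 and 382 CPM in the lower pool, with no overlap (log2 fold change -4.88, SE 0.75, edgeR adjusted p = 0.0234). HACD4, a relative of HACD3 with the opposite change, had 3.99, 6.32 and 9.0 CPM against 16.5, 26.9 and 46.0 CPM (log2 fold change -2.19, SE 0.31, edgeR adjusted p = 0.0198). SLC1A5, the main glutamine carrier of dividing cells, had 7.78, 9.01 and 16.9 CPM in the upper pool and 23.3, 37.3 and 73.3 CPM in the lower pool. Its log2 fold change was -1.96 (SE 0.29, edgeR adjusted p = 0.0211). The 23.3 CPM were those of very low replicate 1. PFKL, a phosphofructokinase of glycolysis, fell by 0.90 on the log2 scale (SE 0.15, edgeR adjusted p = 0.0235), from 122 to 209 CPM down to 69.4 to 97.7 CPM. NR3C1, the glucocorticoid receptor, fell by 0.97 on the log2 scale (SE 0.17, edgeR adjusted p = 0.0246), with 23.6, 28.1 and 32.2 CPM in the upper pool and 39.7, 58.1 and 74.9 CPM in the lower pool.

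In several of the largest falls, very low replicate 2, the smallest library and the one with the highest epithelial score, had by far the highest value. MSLN, mesothelin, a surface protein of mesothelium and some epithelia, had 6.86, 20.3 and 43.7 CPM in the upper pool and 49.1, 185 and 979 CPM in the lower pool (log2 fold change -3.75, SE 0.73, edgeR adjusted p = 0.0257). The 979 CPM were those of that library. HPD, an enzyme of tyrosine breakdown, had a median of 1.79 CPM in the lower pool but 40.01 CPM in very low replicate 2, against 0 to 0.997 CPM in the upper pool (log2 fold change -3.98, SE 1.09, edgeR adjusted p = 0.049). PITX1, a homeobox factor, had a similar shape, with a median of 1.94 CPM and 36.4 CPM in the same library, against 0 to 1.19 CPM. TRIM29, at 0.53 to 15.5 CPM against 0 to 0.374 CPM, and PTPRZ1, a receptor phosphatase, at 2.83 to 35.1 CPM against 0.638 to 2.55 CPM, were highest there too. These 5 genes were separated all the same in scaled levels, but not in reads before scaling. For TRIM29 the closest libraries, very low replicate 1 and very high replicate 2, held 3 reads each, and for HPD the same 2 libraries held 8 each. For PITX1 very low replicate 1 and very high replicate 3 held 9 each. Very low replicate 1 held fewer reads than high replicate 1 for MSLN (278 against 326) and PTPRZ1 (16 against 19). Very low replicate 2 was the highest lower library in 259 of the 511 genes called lower, 50.7%, beside 25.9% of all tested genes, and without it 128 genes were called lower. Among genes named further on, it also held the highest values of C2, CXCL5, PIGR, PTGES, MMP7 and KRT19.

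The list with the most calls was that of macrophage and dendritic cell markers. Of 24 tested members, 20 were called lower and none higher, with a median log2 fold change of -1.82. The score of the list was 2.95 to 3.88 in the upper pool and 3.97 to 5.59 in the lower pool, so the pools did not overlap. CD68, a lysosomal protein of macrophages, had 10.7, 19.8 and 28.2 CPM in the upper pool and 47.7, 72.6 and 133 CPM in the lower pool (log2 fold change -2.06, SE 0.31, edgeR adjusted p = 0.0234). CSF1R, the receptor for the macrophage growth factor, had 17.9 to 42.9 CPM against 42.2 to 220 CPM and touched at the edges (log2 fold change -2.08, SE 0.35, edgeR adjusted p = 0.0235). TFEC, a transcription factor of macrophages that is not in the list, fell by 2.85 on the log2 scale (SE 0.58, edgeR adjusted p = 0.0273) and was separated. Without very low replicate 1 the count of markers called lower was 21, without very low replicate 2 it was 12, without high replicate 1 it was 13 and without high replicate 3 it was 11. It was 1 without very high replicate 1 or 2 and 0 without low replicate 3, high replicate 2 or very high replicate 3, while the median stayed between -1.98 and -1.61 in the 12 fits.

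T and NK cell markers were called lower in 12 of 29 tested genes, all 29 had a negative log2 fold change, and their median was -1.62. KLRD1, the CD94 receptor of NK cells, had 0.409, 0.519 and 0.623 CPM in the upper pool and 1.54, 1.87 and 3.87 CPM in the lower pool, a separated but scarce transcript (log2 fold change -2.12, SE 0.33, edgeR adjusted p = 0.0235). TRAT1, an adaptor of the T cell receptor, had 1.5 to 2.82 CPM against 3.64 to 13.9 CPM (log2 fold change -1.97, SE 0.37, edgeR adjusted p = 0.0257). The components of the T cell receptor complex CD3D, CD3E, CD3G and CD247 were all among the 12. The scores of the pools overlapped, at 1.5 to 2.72 and 2.70 to 4.33, and the count of genes called lower ran from 0 to 24 in the fits that left out 1 library, with 24 of 31 tested without very low replicate 1, 18 without low replicate 2, 5 without low replicate 1, 4 without high replicate 3 and 2 without very low replicate 2. It was 1 without very high replicate 2 and 0 without low replicate 3, high replicate 2 or very high replicates 1 or 3. Of 15 B and plasma cell markers, 2 were called lower. These were PIGR, the epithelial receptor that carries polymeric immunoglobulin into secretions, at 45.9 to 198 CPM against 89.1 to 5164 CPM, and MZB1, a plasma cell chaperone (log2 fold change -2.84, SE 0.78, edgeR adjusted p = 0.0498).

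Neutrophil markers and antimicrobial genes had the most negative median of the lists, -3.22 over 17 tested genes, of which 8 were called lower. NCF4, a subunit of the phagocyte NADPH oxidase, had 2.30, 5.34 and 6.73 CPM in the upper pool and 8.71, 16.3 and 32.3 CPM in the lower pool (log2 fold change -1.90, SE 0.38, edgeR adjusted p = 0.0257). The score spread widely in the lower pool, from 3.01 in very low replicate 1 to 7.87 in very low replicate 2, and that of very low replicate 1 lay below the whole upper pool (3.25 to 4.42). The count called lower was 17 of 19 tested without the former library and 2 of 17 without the latter. It was 3 without high replicate 1 and 2 without high replicate 3. Each of the fits without low replicate 3, high replicate 2 or very high replicate 3 called 0, and without very high replicate 1 or 2 it was 1.

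Genes of antigen presentation were also called lower. Of 31 genes of antigen processing and MHC, 11 were called lower, 30 had a negative log2 fold change and the median was -1.31. CD74, the invariant chain that guides MHC class II molecules, was the most abundant of the named ones, with 658, 816 and 1367 CPM in the upper pool and 1471, 3202 and 6395 CPM in the lower pool (log2 fold change -1.94, SE 0.38, edgeR adjusted p = 0.0257). BOLA-DRB3, a class II chain, fell by 1.72 on the log2 scale (SE 0.35, edgeR adjusted p = 0.0272), and its counts are uncertain because bovine MHC genes have close copies. Complement genes were called lower in 7 of 24, with a median of -1.005. C2, a protease of the classical pathway, had 6.33, 11.6 and 32.0 CPM against 36.5, 93.9 and 434 CPM (log2 fold change -3.09, SE 0.66, edgeR adjusted p = 0.029). CFD, which starts the alternative pathway, fell by 1.53 on the log2 scale (SE 0.33, edgeR adjusted p = 0.029). Of 61 inflammatory cytokines and receptors, 9 were called lower and the median was -1.23. CXCL5, a neutrophil-attracting chemokine, had 2.49, 5.54 and 12.6 CPM in the upper pool and 3.53, 136 and 630 CPM in the lower pool, and the value of 3.53 CPM was that of very low replicate 1 (log2 fold change -4.80, SE 0.91, edgeR adjusted p = 0.0257). PYCARD, the inflammasome adaptor, was just separated, at 6.20 to 14.6 CPM against 14.7 to 54.0 CPM. Of 31 interferon-stimulated genes, 1 was called lower, LGALS9 (log2 fold change -1.29, SE 0.35, edgeR adjusted p = 0.0491). In the fits with 1 library left out the counts called lower ran from 0 to 19 for antigen processing, from 0 to 9 for complement and from 0 to 22 for the inflammatory list, and each was highest without very low replicate 1. They were 4, 2 and 4 without very low replicate 2, 9, 3 and 6 without high replicate 1, 3, 2 and 4 without high replicate 3, and 0 without low replicate 3, high replicate 2 or any very high library.

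**Figure D3:**
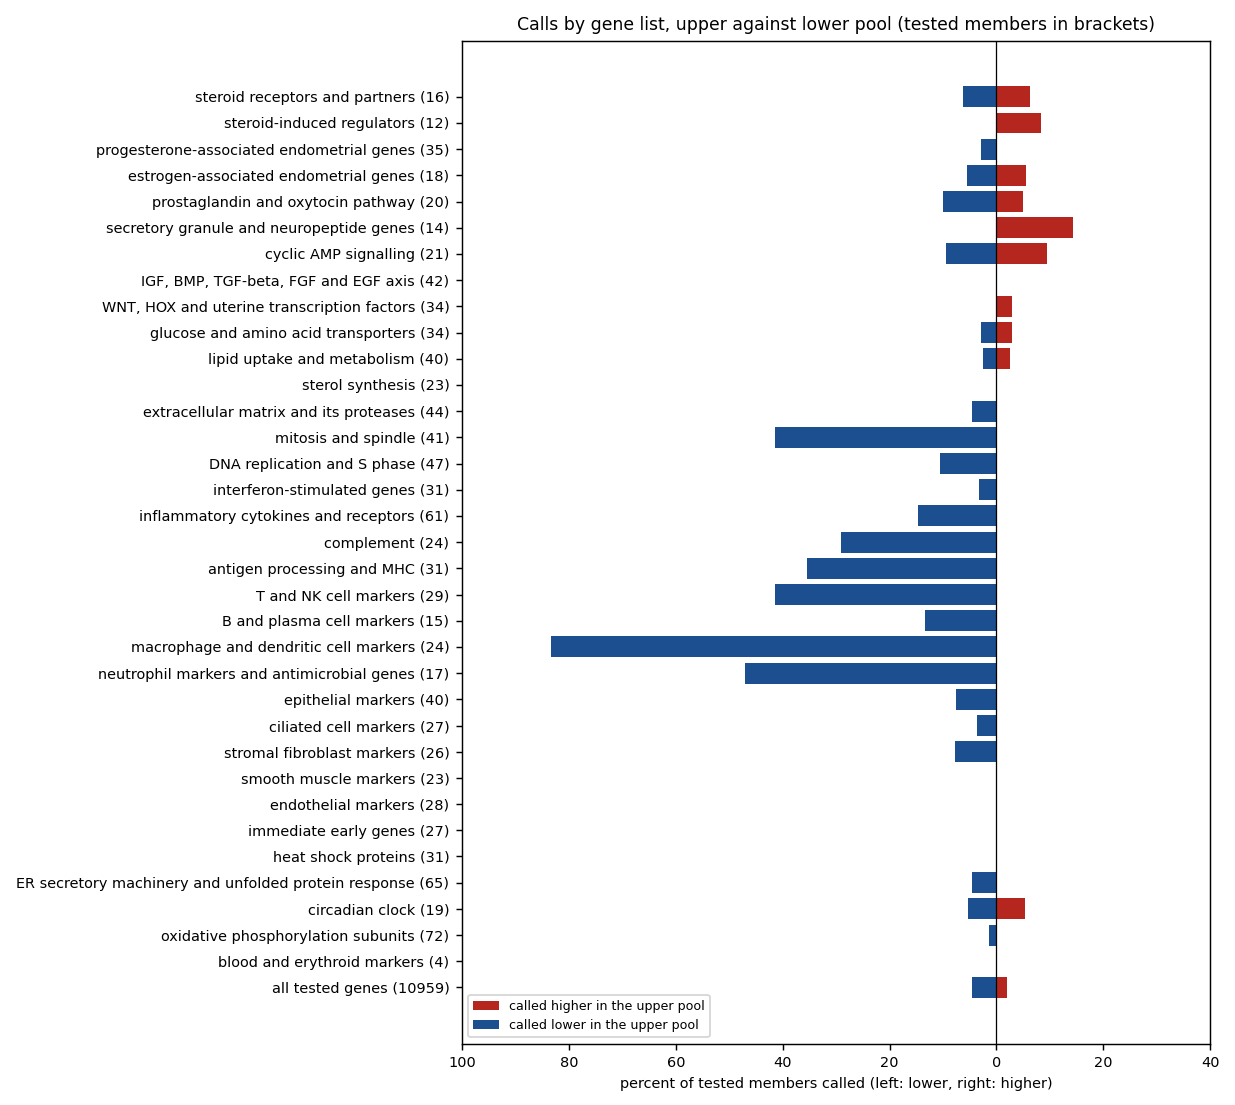
Percent of the tested members of each gene list called higher (red, right) or lower (blue, left) in the upper pool, with the number of tested members in brackets. Macrophage and dendritic cell markers stand furthest to the left with 20 of 24, and neutrophil and antimicrobial, T and NK cell, mitosis and antigen presentation genes follow, beside 4.66% called lower and 1.92% called higher over all tested genes.

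Cell division genes gave the second highest count. Of 41 tested genes of mitosis and the spindle, 17 were called lower, 40 had a negative log2 fold change and the median was -1.62. AURKA, the kinase that matures centrosomes, had 3.69, 4.34 and 4.77 CPM in the upper pool and 6.53, 11.1 and 20.6 CPM in the lower pool (log2 fold change -1.5, SE 0.29, edgeR adjusted p = 0.0257). KIF23, a motor of the midbody, had 4.46 to 8.05 CPM against 7.07 to 34.8 CPM and overlapped (log2 fold change -1.84, SE 0.37, edgeR adjusted p = 0.0267). Of 47 genes of DNA replication, 5 were called lower with a median of -0.22. RRM2, a subunit of ribonucleotide reductase, fell by 2.77 on the log2 scale (SE 0.52, edgeR adjusted p = 0.0257), and CCNE1, cyclin E1, fell by 1.22 on that scale (SE 0.31, edgeR adjusted p = 0.0408). The mitosis score was 1.49 to 3.13 in the upper pool and 2.51 to 4.36 in the lower pool, and very low replicate 1 was the lowest of the lower pool. Without that library 29 of the mitosis genes were called lower, without low replicate 2 it was 21, without very low replicates 2 or 3 or high replicate 1 it was 8, and without low replicate 3, high replicate 2 or any very high library it was 0. The median stayed between -1.93 and -1.38.

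**Figure D4:**
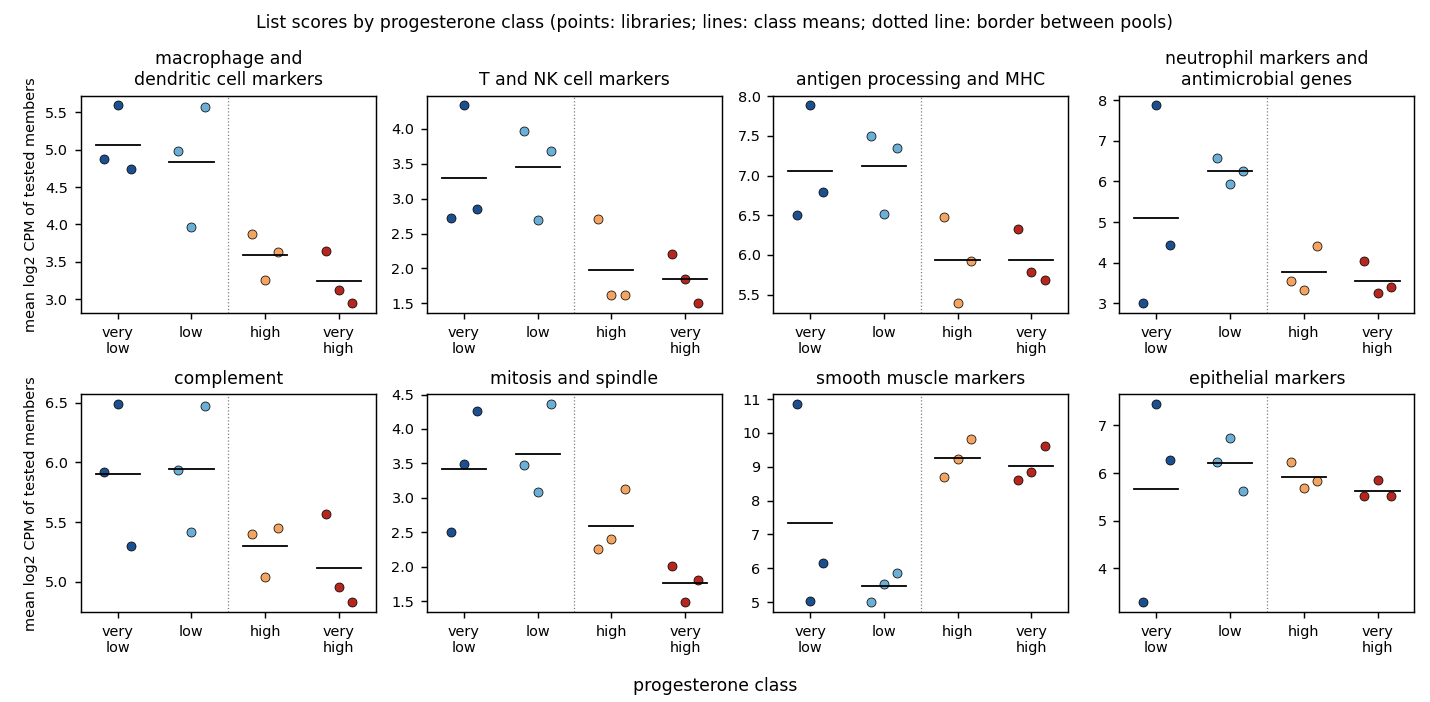
Score of 8 gene lists (mean log2 CPM of the tested members) in each library by progesterone class, with class means as lines and the border between the pools dotted. The macrophage score separates the pools (2.95 to 3.88 against 3.97 to 5.59), the smooth muscle score of very low replicate 1 (10.84) lies above all other libraries, and its epithelial score (3.30) lies below them.

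Genes of the hormone response gave few calls. PGR, the progesterone receptor, had 20.0, 27.0 and 37.5 CPM in the upper pool and 27.7, 35.2 and 70.3 CPM in the lower pool, with a log2 fold change of -0.64 (SE 0.25, edgeR adjusted p = 0.129). ESR1, the estrogen receptor, had 21.5 to 61.2 CPM against 17.5 to 151 CPM (log2 fold change -0.68, SE 0.47, edgeR adjusted p = 0.383). OXTR, the oxytocin receptor, had 2.52, 7.64 and 37.8 CPM against 6.85, 39.0 and 209 CPM (log2 fold change -2.78, SE 0.91, edgeR adjusted p = 0.0805). None of the 3 passed, and all overlapped between the pools. Among 16 tested steroid receptors and partners, NR3C1 was called lower and FKBP5, a cochaperone of steroid receptors that steroids induce, was called higher, at 180, 261 and 316 CPM against 70.1, 98.8 and 184 CPM (log2 fold change 1.06, SE 0.26, edgeR adjusted p = 0.0379). FKBP5 was also the call among 12 steroid-induced regulators. Of 35 progesterone-associated endometrial genes none was called higher and 1, the lysosomal protease CTSL, was called lower (log2 fold change -2.0, SE 0.52, edgeR adjusted p = 0.0425), while the list's median was 0.46. At an unadjusted p under 0.05, 5 of the 35 were higher and 8 lower, and DESeq2 called 2 higher and 7 lower. The fit of 4 class means called 8 of the 35 higher and 1 lower, the fit that took the smooth muscle score as covariate 10 and 1, and the fit without the low class 13 and 1. Of 18 estrogen-associated genes, CYP26A1, which breaks down retinoic acid, was called higher at 15.7, 32.1 and 113 CPM against 0, 3.02 and 16.8 CPM, and KRT19, an epithelial keratin, was called lower at 70.8, 89.3 and 148 CPM against 84.8, 414 and 1175 CPM. Of the 18 estrogen-associated genes, 14 had a negative log2 fold change and the median was -1.15. At an unadjusted p under 0.05, 1 was higher and 9 lower, and DESeq2 called 1 higher and 8 lower. With the smooth muscle score as covariate, 2 were called higher and 2 lower around a median of 0.003. In the prostaglandin and oxytocin pathway, 3 of 20 genes were called. PTGES, a prostaglandin E synthase, had 1.25, 3.23 and 5.37 CPM in the upper pool and 4.48, 41.6 and 133 CPM in the lower pool (log2 fold change -3.79, SE 0.70, edgeR adjusted p = 0.0257). AKR1C4, an aldo-keto reductase of steroids with close copies in the genome, was called higher (log2 fold change 2.05, SE 0.51, edgeR adjusted p = 0.039), and TBXAS1, thromboxane synthase, was called lower.

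The contrast of pools passes over genes whose step lies between the very low and the low class. PENK, the precursor of enkephalins and 1 of 3 examples picked with their values known, had class means of 2.69, 772, 828 and 3208 CPM from very low to very high, and its pooled log2 fold change of 2.38 (SE 1.40) did not pass (edgeR adjusted p = 0.307). HPGD, which inactivates prostaglandins, had class means of 32.0, 424, 416 and 429 CPM (log2 fold change 0.89, SE 0.80, edgeR adjusted p = 0.519). AKR1B1, a reductase with prostaglandin F synthase activity in cattle, had 106, 499, 517 and 585 CPM (log2 fold change 0.87, SE 0.52, edgeR adjusted p = 0.316). In these genes the low class stood near the high class.

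In other lists the calls were scattered. SLC1A5 was called lower and SLC7A8, a carrier of neutral amino acids, was called higher (log2 fold change 2.06, SE 0.56, edgeR adjusted p = 0.0483) among 34 transporters. AXIN2, a feedback gene of WNT signalling, was the call among 34 WNT, HOX and uterine transcription factor genes (log2 fold change 1.42, SE 0.36, edgeR adjusted p = 0.0411). Among 19 clock genes, NFIL3, a repressor in the output of the clock, was called higher at 87.1, 117 and 181 CPM against 27.3, 45.5 and 84.4 CPM, and BHLHE40, a repressor of clock genes, was called lower. Of 44 extracellular matrix genes, MMP7, matrilysin, and PLAU, the urokinase that activates plasminogen (log2 fold change -2.15, SE 0.47, edgeR adjusted p = 0.0299), were called lower. MMP7 had 0.915, 4.09 and 9.39 CPM in the upper pool and 4.60, 53.8 and 320 CPM in the lower pool (log2 fold change -4.40, SE 0.84, edgeR adjusted p = 0.0257). Of 65 genes of the ER secretory machinery and unfolded protein response, 3 were called lower, and 59 had a negative log2 fold change around a median of -0.38. RPN2, a subunit of oligosaccharyltransferase, was an example of a small but separated difference, with 250, 270 and 288 CPM against 323, 377 and 429 CPM (log2 fold change -0.46, SE 0.11, edgeR adjusted p = 0.0375). No member was called among 42 growth factor genes, 28 endothelial markers, 27 immediate early genes, 31 heat shock genes or 4 erythroid markers by edgeR. At an unadjusted p under 0.05 these 5 lists held 7 higher and 20 lower genes, and DESeq2 called 5 and 12. Of the 27 immediate early genes, 25 had a negative log2 fold change around a median of -1.37. At the same unadjusted limit 0 of them were higher and 7 lower. Their median ran from -1.82 to -0.36 with 1 library left out, and was 0.23 with the smooth muscle score as covariate. Of the tissue markers, 3 of 40 epithelial (MSLN, KRT7 and KRT19) and 1 of 27 ciliated genes (TUBB4B) were called lower. So were 2 of 26 stromal genes (THY1 and ECM1) and 1 of 72 oxidative phosphorylation subunits (COX5A). The log2 fold change was negative in 27 of the epithelial, 26 of the ciliated and 18 of the stromal genes, and in 67 of the subunits. The medians were -0.30, -0.77, -0.49 and -0.24. At an unadjusted p under 0.05, 0 of the subunits were higher and 12 lower.

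Smooth muscle genes gave no calls with all 12 libraries. None of the 23 markers was separated or called by edgeR, 1 had an unadjusted p under 0.05 and limma-voom called 4, all higher. DESeq2 gave an adjusted p for 9 of them and called 1 higher. Their median log2 fold change was 0.60. The level in very low replicate 1 exceeded every upper library in 21 of the 23. MYH11, the smooth muscle myosin heavy chain, had 1455 CPM there, 221 to 769 CPM in the upper pool and 1.92 to 3.12 CPM in the other 5 lower libraries. Without that library 21 of the 23 were called higher, with a median log2 fold change of 3.24. The same library had kept many other genes from being separated. At the same scaling, 459 genes were separated higher and 434 lower without it, 289 and 229 more than with it. Of the 289, it lay above the upper range in 173 and inside it in 116.

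The place of that library was also counted among the genes called with all 12. Among the 210 called higher, very low replicate 1 reached into or beyond the upper range in 23 (11%). Low replicate 1 did so in 46 (21.9%). Over all tested genes only values inside the range were counted, at 30.9% and 53.4%, so those shares are no baseline for these. Very low replicate 1 was the lowest lower library in 64 of the 210 (30.5%), beside 29.6% of all tested. Such counts are held down by the choice of called genes. In the other 11 libraries the muscle score separates the pools as progesterone does, and the 2 cannot be told apart there. Among the 511 called lower, very low replicate 1 reached into or beyond the upper range in 166 (32.5%). Low replicate 2 did so in 165 (32.3%). The shares of all tested genes inside the range were 30.9% and 54.5%, again not a like count. When the fit took the smooth muscle score as a covariate, 16 of the 24 macrophage markers, 6 of the 41 mitosis genes, 4 of the 29 T and NK cell markers and 4 of the 31 antigen presentation genes were called lower, with medians of -1.55, -1.22, -0.99 and -0.55. With the epithelial score added, the counts were 0, 0, 1 and 0 and the medians -1.06, -1.24, -0.90 and -0.47. Under the smooth muscle covariate alone, 2 of the 17 neutrophil and antimicrobial genes were called lower and their median was -0.34. Of the 61 inflammatory genes 1 was called lower and 2 higher around a median of -0.008. Epithelial markers changed direction in that fit, with 23 of 40 called higher, 1 lower and a median of 1.74. Because the muscle score otherwise splits with the pools, all fits with this covariate lean largely on very low replicate 1. That library also had the lowest epithelial score, 3.30, so these fits cannot separate muscle from pool. The part of tissue make-up in the leukocyte, antimicrobial and division results was not tested.

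**Figure D5:**
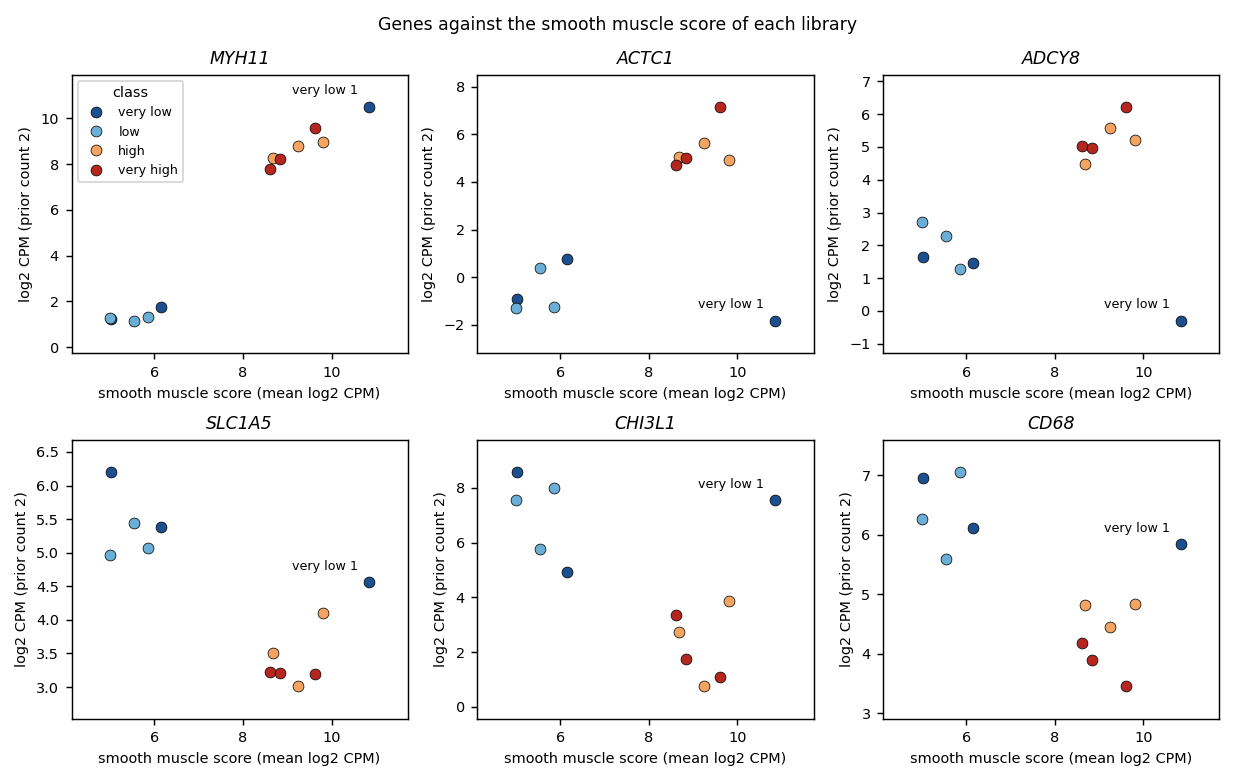
Level (log2 CPM with a prior count of 2) of 6 genes against the smooth muscle score of each library, coloured by class, with very low replicate 1 marked. MYH11, which is 1 of the 23 markers averaged in the score, follows it in all 12 libraries, at a score of 10.84 in very low replicate 1. ACTC1, ADCY8, SLC1A5, CHI3L1 and CD68 were plotted because their pools were separated, which by itself places that library with the lower pool.

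No gene passed the edgeR test for differences inside the pools. A joint edgeR test of high against very high and low against very low called 0 of 10959 genes (0%), with 656 at an unadjusted p under 0.05. DESeq2 called 85 in the same test and limma-voom 0. Among the named genes the smallest unadjusted p was that of OXTR (0.000881, edgeR adjusted p = 0.632), whose mean was 144 CPM in the very low class and 13.2 CPM in the low class. In all 210 genes called higher both upper class means lay above both lower ones, and in all 511 called lower both lay below, beside 2641 and 3664 of the 10959 tested. The pooled fit keeps the spread between classes in the residual, so a gene whose class means cross was unlikely to be called. The 210 and 511 are therefore largely set by the choice of genes. A rise at every step from very low to very high was found in 108 of the 210, beside 1051 of those 2641, and a fall at every step in 218 of the 511, beside 1581 of the 3664. The lower pool was the more variable, with a median SD of log2 CPM of 0.554 over genes against 0.267 in the upper pool. The SD was larger in the lower pool in 9854 genes (89.9%), and in 9011 (82.2%) when very low replicate 1 was left out.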

How the data were processed

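Polyadenylated RNA of 12 endometrial biopsies was sequenced from stranded libraries in 1 equimolar pool, per the labels' protocols. The authors deposited raw counts, whole numbers of reads per gene symbol with 1 column per sample and no scaling. FastQC 0.11.2, Trimmomatic 0.32 and the builds UMD3.1 and bosTau8 are named in the submitters' processing notes. The sources used here name no aligner, counting program or strand setting, and reads from overlapping genes may therefore be mixed. No coordinates are given.

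The 13930 symbols were filtered with filterByExpr of edgeR 4.0.16 (4 classes as group, count minimum 10), leaving 10959, and scaled by TMM. A quasi-likelihood fit of 2 pool means, with 10 residual degrees of freedom, was tested with Benjamini-Hochberg adjustment over all tested genes at 0.05. The common dispersion of 0.205 equals a biological coefficient of variation of 45.3%. CPM are TMM-scaled, and log2 CPM use a prior count of 2. Standard errors are the log2 fold change over the root of F. A test on simulated data with 10959 genes recovered 25% of 2-fold and 76% of 4-fold changes and called 2 unchanged genes. The simulated counts were drawn gene by gene, with the same dispersion in both pools. They leave out the wider spread of the lower pool and differences in tissue make-up, so these rates may not hold for the real libraries. Total counts of 3772564 to 8379489 per library set the counting precision.

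Named genes were PGR, ESR1 and OXTR, then, among called and separated genes whose mean log2 CPM was 1 or more, the 8 largest fold changes, 6 smallest p and 4 widest gaps in each direction, and from each list up to 2 called members, taken by smallest p. Other genes are named with their list or as examples, and 1 gene the rule takes is not reported here. The pools, the 34 gene lists and this rule were chosen with earlier results of these data known, and lists are described without a test. DESeq2 1.42.0 and limma 3.58.1 were alternatives, beside other scalings and filters, covariates, thinning and leaving out libraries and classes. All replicate pairs within a class differed beyond counting noise (chi-square over its degrees of freedom 21.8 to 284), and all libraries were used. Sequences were not used here.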

Additional observations from a re-analysis of the deposited data

Results flagged for a closer look

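Within the 6 libraries of each pool, 9 of 202 sets of values had a highest or lowest library set apart by more than 0.625 of the range (Dixon's 95% value), where chance gives about 1 in 20. The values that follow are log2 CPM of a gene or the mean log2 CPM of a list. In the lower pool, the smooth muscle score of very low replicate 1 was 10.84, against 5.0 to 6.15 in the other 5 libraries, and its CXCL5 level was 1.93, against 6.64 to 9.30. Without that library 21 of 23 smooth muscle markers were called higher in the upper pool. In the upper pool, CYTH4, an activator of ARF proteins in leukocytes, was lowest in high replicate 2 at 0.060, against 0.91 to 1.13. ACACA was highest in very high replicate 2 at 8.30, against 6.69 to 7.19, and LGALS9 was lowest in very high replicate 3 at 4.8, against 5.73 to 6.19. Among the list scores of the upper pool, immediate early genes were highest in high replicate 1 at 6.87, against 4.24 to 5.14, and heat shock genes were highest in high replicate 3 at 7.08, against 6.66 to 6.79. The clock score was lowest in high replicate 3 at 4.85, against 5.05 to 5.14, and the cyclic AMP score was lowest in very high replicate 1 at 4.68, against 4.81 to 4.87.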

How the results depend on the processing

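Of 28 alternatives, 27 were planned and 1, leaving out very low replicates 1 and 2 together, was added after the data were seen. Scaling by RLE gave 213 higher and 500 lower and by upper quartiles 189 and 602. Calls were 588 higher and 1173 lower with DESeq2, which also called 85 genes within the pools, 182 and 179 with limma-voom, 1170 and 1149 with the smooth muscle score as covariate, and 132 and 323 when counts were thinned to the smallest total. With the replicate number as a block they were 79 and 174. The numbers gave no clear sign of pairing. Of 18 same-numbered pairs, 3 had a correlation over 0.1 (range -0.30 to 0.29), and 4 of 12 libraries correlated best with their own number. Such correlations cannot exclude a pairing. Leaving out 1 library gave 4 to 566 higher and 0 to 1070 lower calls, and 197 to 434 and 193 to 464 separated genes. Separated genes were 721 higher and 664 lower without the very low class, 987 and 716 without the low class (492 called higher), 566 and 513 without the high class, and 298 and 312 without the very high class. Calls were 0 and 0 without the high class and 1 and 0 without the very high class by edgeR, with 1632 and 1203 genes at an unadjusted p under 0.05. Without very low replicates 1 and 2, 447 were called higher, and 543 and 479 were separated. The cause of these shifts was not tested, and the fits that left libraries out also held fewer of them. Of 1860 values of named genes under an alternative, 1194 kept their direction and their side of the threshold, 656 kept the direction only, 7 newly passed and 3 reversed, all close to 0. These were MZB1 (0.089) with the smooth muscle and epithelial scores as covariates, and ESR1 without the very low class (0.0079) and without very low replicates 1 and 2 (0.042). Of the 721 calls, 708 were shared under RLE scaling, 720 by DESeq2, 719 without very low replicate 1, 311 with the smooth muscle covariate and 61 with both scores. Depth limits the scarce genes, such as SCG2, KLRD1 and TNNI1.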

Other observations

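The 3 largest falls among the 511 genes called lower were in beta-defensins, small antimicrobial peptides of epithelia, and they are named here because of their values. TAP, the tracheal antimicrobial peptide of cattle, had 6.38, 18.7 and 43.6 CPM (lowest, median and highest) in the upper pool and 4.60, 786 and 2857 CPM in the lower pool, a log2 fold change of -5.63 (SE 1.27, edgeR adjusted p = 0.0317). DEFB13 had 0.893 to 7.64 CPM against 0.354 to 447 CPM (log2 fold change -5.71, SE 1.35, edgeR adjusted p = 0.0359), and DEFB5 had 0 to 2.18 CPM against 0 to 204 CPM (log2 fold change -5.55, SE 1.49, edgeR adjusted p = 0.0477). The ranges of the pools overlapped in all 3, and the lowest library of the lower pool was very low replicate 1 in each. Bovine beta-defensins are close copies of each other, and reads could be shared between them.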
